A study of Homo sapiens with 24 samples.

Results

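The AP-1 transcription factor genes are described here by their RNA levels in SKOV3.ip1 cells, which derive from SKOV-3, an established line of human ovarian carcinoma. The 8 genes, FOS, FOSB, FOSL1, FOSL2, JUN, JUNB, JUND and EGR1, were chosen by symbol out of 57773 genes in the deposited table, and all 8 symbols were found. Their identifiers are ENSG00000170345 (FOS), ENSG00000125740 (FOSB), ENSG00000175592 (FOSL1), ENSG00000075426 (FOSL2), ENSG00000177606 (JUN), ENSG00000171223 (JUNB), ENSG00000130522 (JUND) and ENSG00000120738 (EGR1). FOS and JUN family proteins are the subunits of AP-1. EGR1, a zinc-finger transcription factor that is not a subunit, was included because it is switched on by the same early signals. RNA was read by TGIRT-seq, in which ribosomal-RNA-depleted, fragmented total RNA is copied by a thermostable group II intron reverse transcriptase. Cells of 8 groups received an siRNA at 100 nM with Lipofectamine and were taken after 72 h. These were RBFOX2 siRNA_1 and siRNA_2 (RBFOX2 is also called RBM9), hnRNPC siRNA_2 and siRNA_3, hnRNPM siRNA_1 and siRNA_3, and SRSF1 siRNA_1 and siRNA_3 (SRSF1 is also called SFRS1). All 4 targeted proteins bind RNA and regulate splicing. Cells of 4 control sets received Lipofectamine without siRNA and are called mock sets. The n4, n5 set was the control for both RBFOX2 siRNAs, and the oct set for both hnRNPC siRNAs and hnRNPM siRNA_1. The nov set was the control for SRSF1 siRNA_1, and the jan set for hnRNPM siRNA_3 and SRSF1 siRNA_3. Each of the 12 groups held 2 libraries. Because no control cells received another siRNA, the loss of a protein and the presence of an siRNA cannot be told apart.

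As background, AP-1 is a dimer of basic leucine zipper proteins that binds the DNA letters TGANTCA. JUN family proteins pair with each other or with FOS family proteins, whereas FOS family proteins need a partner. FOS, FOSB, JUN, JUNB and EGR1 are immediate early genes: serum, growth factors or stress raise their transcription within minutes through MAP kinases, the serum response factor SRF with ELK cofactors, and CREB or ATF proteins. Their RNAs are short-lived. FOSL1, FOSL2 and JUND usually respond later or are steadily expressed. In carcinoma lines AP-1 is best known as an output of receptor tyrosine kinase and RAS signalling that drives genes of invasion and growth.

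The promoters of the 7 genes in RefSeq's table are shown first, so that those of genes whose levels varied together can be read beside that of FOSL2. Each is the 150 bases before the RefSeq transcription start on GRCh38.p14, written 5′ to 3′ along the gene. FOS lies at chr14:75278678-75278827, FOSB at chr19:45467846-45467995, EGR1 at chr5:138465329-138465478, FOSL2 at chr2:28392708-28392857 and JUNB at chr19:12791336-12791485, all on the plus strand, and JUND at chr19:18281623-18281772 and JUN at chr1:58784048-58784197 on the minus strand. The deposited levels were made on another build, hg19. Capitals mark TGACGT or its reverse complement, the 8-letter TGACATCA, and the CArG box, the motif that SRF binds.
FOS: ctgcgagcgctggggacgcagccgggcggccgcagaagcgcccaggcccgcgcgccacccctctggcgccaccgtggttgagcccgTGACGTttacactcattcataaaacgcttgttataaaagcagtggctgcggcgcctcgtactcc
FOSB: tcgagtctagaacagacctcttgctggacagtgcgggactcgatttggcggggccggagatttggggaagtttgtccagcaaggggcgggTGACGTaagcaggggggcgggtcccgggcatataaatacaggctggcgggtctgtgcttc
EGR1: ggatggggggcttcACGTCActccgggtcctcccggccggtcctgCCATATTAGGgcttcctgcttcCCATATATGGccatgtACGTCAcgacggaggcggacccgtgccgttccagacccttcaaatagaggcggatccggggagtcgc
JUN: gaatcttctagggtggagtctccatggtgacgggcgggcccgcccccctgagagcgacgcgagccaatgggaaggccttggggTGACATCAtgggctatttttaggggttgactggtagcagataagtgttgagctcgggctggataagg
FOSL2: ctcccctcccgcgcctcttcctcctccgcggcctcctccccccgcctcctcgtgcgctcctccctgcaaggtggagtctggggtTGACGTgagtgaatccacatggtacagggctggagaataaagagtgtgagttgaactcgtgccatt
JUNB: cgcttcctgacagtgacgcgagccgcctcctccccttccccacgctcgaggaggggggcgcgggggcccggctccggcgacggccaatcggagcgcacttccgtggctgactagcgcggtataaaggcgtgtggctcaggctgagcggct
JUND: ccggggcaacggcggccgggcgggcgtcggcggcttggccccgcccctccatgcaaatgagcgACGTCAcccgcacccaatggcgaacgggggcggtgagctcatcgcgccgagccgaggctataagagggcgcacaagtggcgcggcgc
The last base of each line is position -1. FOS held TGACGT at -64 to -59, FOSB at -60 to -55 and FOSL2 at -66 to -61. JUN held TGACATCA in nearly the same place, at -67 to -60. JUND held the reverse complement of TGACGT at -87 to -82. EGR1 held the reverse complement of TGACGT at -136 to -131 and at -67 to -62, and CArG boxes at -105 to -96 and at -83 to -74. Searched on both strands from 250 bases before to 50 bases after the start, TGACGT was found in 5 of the 7 promoters and in 7.983% of 35114 promoters of that length. This motif was chosen after the promoters were seen, and it is contained in the longer TGACGTCA. TGACGTCA was found in JUND alone among the 7, before the stretch shown, against 1.848% of all promoters. TGACATCA was found in JUN alone, against 2.614%. The CArG box was found in EGR1 alone, against 1.293%, and bases farther from the start were not searched. TGANTCA was found in FOSL2 alone, at 5 to 11 after the start, against 7.709%. JUNB held none of these letters in its window, and FOSL1 had no entry in the table. A match is a description of letters, not of a bound site.

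The deposited values were TPM, transcript abundances per length that sum to the same total in every library. They were divided by a median-ratio factor for each library, and the result is called scaled TPM. The depth behind a TPM value is unknown. All 10 line markers were present in every library, with a summed level of 957 to 1295 scaled TPM. Among them ERBB2, a receptor tyrosine kinase that SKOV-3 is known to carry in many copies, lay at 379 to 644 scaled TPM. Of 10 measured markers of leukocytes, red cells, endothelium and neurons (11 were listed), 9 stayed under 1 TPM in every library; SYT1 reached 1.70 TPM and HBB was at 0 in all 24. The targeted gene stood at 21.3% to 32.0% of its mock set in its 8 own comparisons. A gene was called at an adjusted p under 0.05 in limma's moderated test. The Benjamini-Hochberg adjustment ran over 16994 genes of at least 1 TPM in at least 2 libraries. An unadjusted p under 0.05 was held by 12.2% of all tested genes for the mean of both RBFOX2 siRNAs. The share was 20.9% for hnRNPC, 10.8% for hnRNPM and 23.3% for SRSF1. These shares are the background for counts at that unadjusted threshold among the 7 genes and in the lists. Fold changes are differences of log2(scaled TPM + 1), which understate the change of weakly expressed genes. In a culture, fewer cells that express a gene and less of its RNA per cell cannot be told apart.

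JUNB and JUND were the most abundant of the 8 genes, and FOSB was nearly silent. Over the 24 libraries JUNB averaged 37.8 scaled TPM (26.7 to 54.01) and JUND 32.5 (23.7 to 44.9). FOSL2 averaged 15.0 (10.6 to 19.8) and JUN 13.4 (9.22 to 25.3). FOS averaged 4.95 (0.511 to 27.5), FOSL1 4.17 (2.12 to 7.37), EGR1 2.68 (0.274 to 11.4) and FOSB 0.136 (0.00400 to 1.20). The highest FOS level was thus 53.9 times the lowest and the highest EGR1 level 41.6 times the lowest, against 1.87 times for FOSL2 and 1.90 times for JUND. JUNB overlaps HOOK2 (5.07 to 14.5 TPM) and FOSB overlaps ERCC1 (3.64 to 7.66 TPM) on the opposite strand, and the use of strand in counting is not given in the sources used here. FOSB reached 1 TPM in a single library, so it was not tested, and the other 7 genes were. The spread between libraries of the same group was also widest for FOS and EGR1 and narrowest for FOSL2, but JUND was not steady by this measure. The residual SD on the log2 scale was 0.891 for FOS and 0.826 for EGR1, in each case larger than for 99.6% of the tested genes. It was 0.226 for JUND, 0.238 for FOSL1, 0.256 for JUNB and 0.273 for JUN, larger than for 80.1% to 85.9% of the genes. It was 0.0655 for FOSL2, larger than for 5.70% of the genes, and the median over all tested genes was 0.132.

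**Figure D1:**
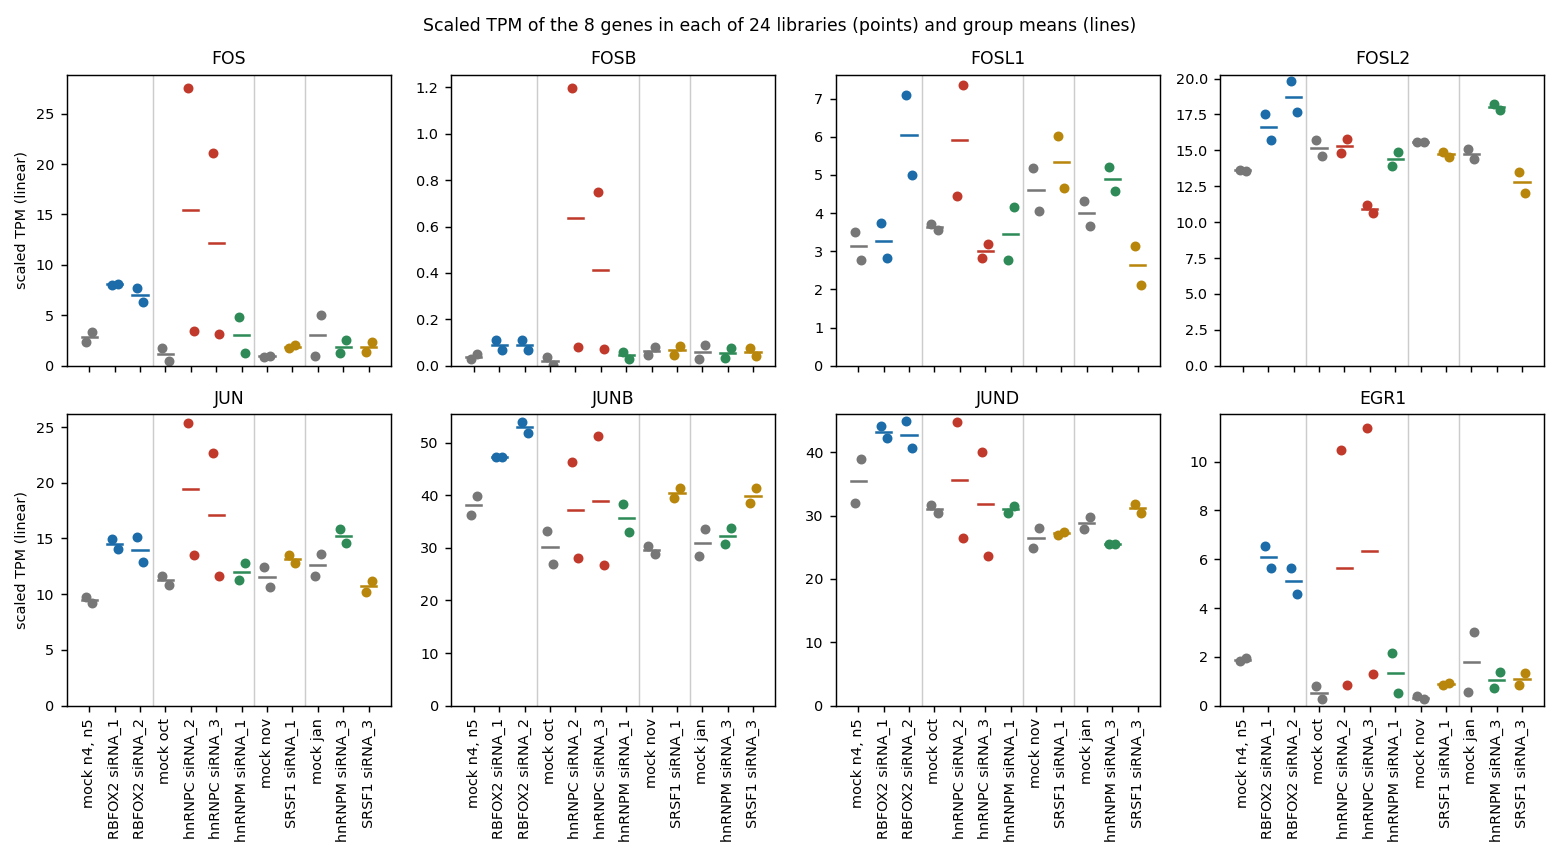
Scaled TPM on linear axes for each of the 8 genes, with 1 point per library, 1 line per group mean and grey vertical lines that set each mock set with its siRNA groups apart from the next. The 2 hnRNPC libraries of replicate 1 stand above the other libraries for FOS (27.5 and 21.1), FOSB (1.20 and 0.748), JUN (25.3 and 22.7) and EGR1 (10.5 and 11.4), but not for FOSL1 or FOSL2.

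The make-up of the families differed in steadiness. Within the JUN family, JUNB held a median of 44.9% of the summed TPM, JUND 38.8% and JUN 15.8%, and the share of JUN ranged from 10.5% to 22.0%. Within the FOS family, FOSL2 held a median of 68.4%, FOSL1 18.1%, FOS 12.4% and FOSB 0.275%. The share of FOS ranged from 2.73% in a mock oct library to 57.4% and 58.9% in the replicate 1 libraries of hnRNPC siRNA_2 and siRNA_3. In these 2 libraries FOS and not FOSL2 was the leading FOS family RNA. In the 4 RBFOX2 siRNA libraries FOS held 21.7% to 30.3%, against 11.9% and 17.1% in their mock set. A share moves with the other genes of its family as well as with its own.

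**Figure D2:**
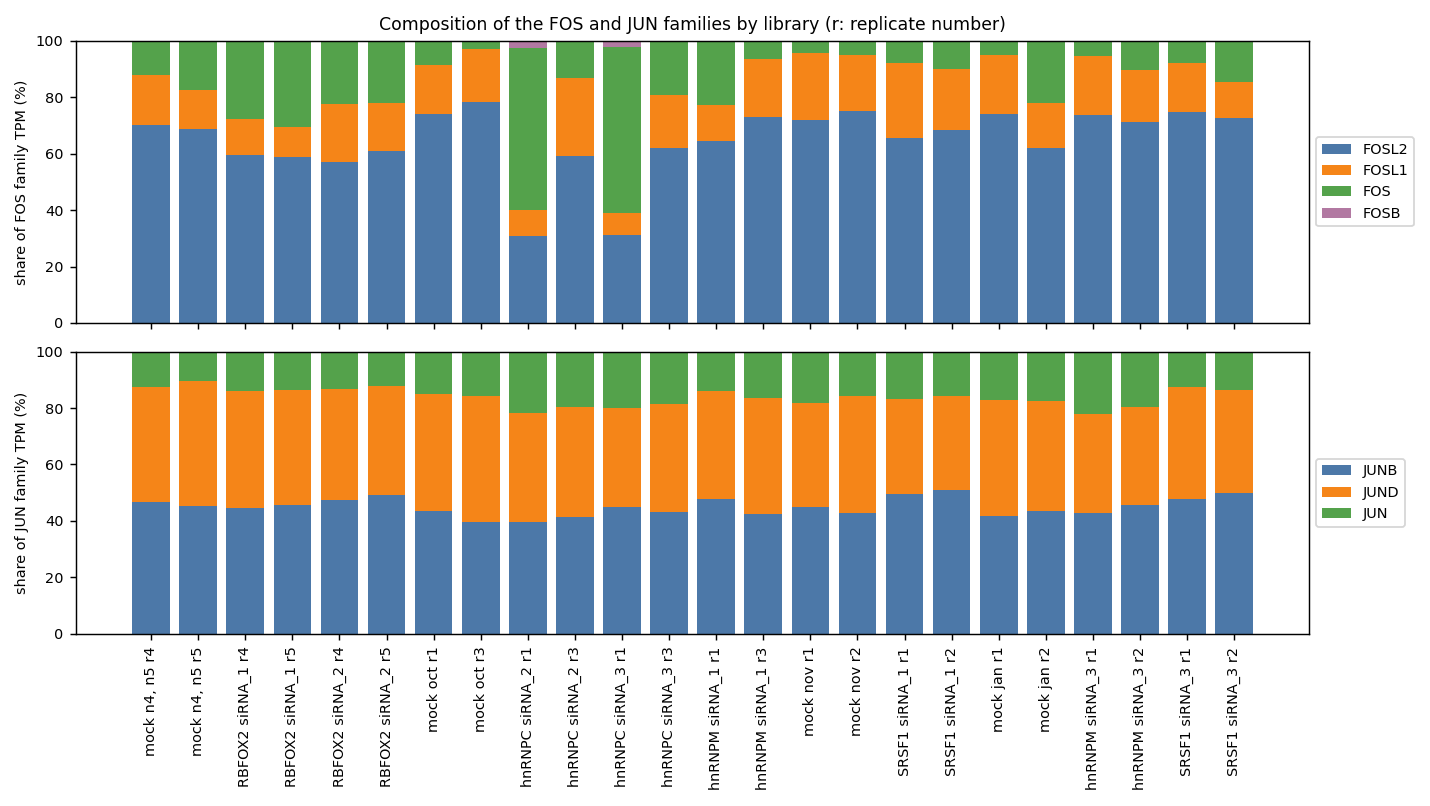
Share of the summed TPM of the FOS family (upper bars) and the JUN family (lower bars) taken by each gene, in percent, for each of the 24 libraries. FOSL2 is the largest share of the FOS family except in the replicate 1 libraries of both hnRNPC siRNAs, where FOS is. In the JUN family JUN stays the smallest share, at 10.5% to 22.0%, and JUNB or JUND is the largest.

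Libraries of the same group could differ severalfold in FOS and EGR1, in siRNA groups and in mock sets. In hnRNPC siRNA_2, FOS was at 27.5 scaled TPM in replicate 1 and 3.45 in replicate 3, a ratio of 7.98. In hnRNPC siRNA_3 it was at 21.1 and 3.19, a ratio of 6.63. The same division appeared without hnRNPC siRNA: in hnRNPM siRNA_1, FOS was at 4.83 in replicate 1 and 1.30 in replicate 3, and in the mock oct set at 1.79 and 0.511. In each of the 4 groups around the oct mock set the replicate 1 library was thus the higher. In the mock jan set FOS was at 0.982 in replicate 1 and 5.04 in replicate 2, whereas in the mock nov set it was at 0.883 and 0.980. The hnRNPC libraries of replicate 1 also differed from those of replicate 3 in how strongly levels followed GC content. The rank correlation between a gene's GC content and its deviation from the mean of all libraries, over 11270 protein-coding genes, was 0.41 and 0.48 in the replicate 1 libraries and 0.0070 and -0.18 in the replicate 3 libraries of siRNA_2 and siRNA_3. This correlation was 0.39 in replicate 1 and -0.44 in replicate 3 of their mock oct set, and 0.37 and 0.26 in hnRNPM siRNA_1. In the mock n4, n5 set it was -0.19 and 0.53, so such shifts were not particular to the hnRNPC libraries. JUNB (64.9% GC) and JUND (69.7% GC) are rich in GC, and FOS (52.6%) and EGR1 (55.4%) are less so. Results with hnRNPC siRNAs are given with and without the replicate 1 siRNA libraries, a choice made after seeing the data.

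With RBFOX2 siRNAs, FOS, EGR1, JUN, JUNB, JUND and FOSL2 were higher in every siRNA library than in either mock library. FOS, the founding FOS family subunit, was at 8.04 and 8.10 scaled TPM with siRNA_1 and at 7.69 and 6.31 with siRNA_2, against 2.31 and 3.37 in the mock set. EGR1 was at 6.54 and 5.63 with siRNA_1 and at 5.64 and 4.59 with siRNA_2, against 1.83 and 1.94. JUN, the founding JUN family subunit, was at 14.9 and 14.0 and at 15.1 and 12.9, against 9.76 and 9.22. For each of these genes the lowest siRNA library lay above the highest mock library. JUNB, which can restrain JUN in other cells, was at 47.3 in both libraries of siRNA_1 and at 54.01 and 51.7 with siRNA_2, against 36.3 and 39.9. JUND was at 44.1 and 42.3 and at 44.9 and 40.7, against 32.0 and 38.9. FOSL2, a FOS family subunit without a strong activation domain, was at 17.5 and 15.8 with siRNA_1 and at 19.8 and 17.7 with siRNA_2, against 13.7 and 13.5. The siRNA_2 libraries both lay above the siRNA_1 libraries, the lower of them only just. FOSB was at 0.0666 to 0.112, against 0.0278 and 0.0494, all near the bottom of the scale. These 6 of 7 tested genes had groups that did not overlap in this direction, against 10.6% of all tested genes.

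Of these differences only that of FOSL2 with siRNA_2 alone passed limma's test. The test draws its spread from all 12 groups, in some of which FOS and EGR1 differed severalfold between libraries. Why the other differences did not pass was not tested. For the mean of both RBFOX2 siRNAs, limma called 0 of the 7 tested genes and 0.112% of all genes. An unadjusted p under 0.05 was held by 2 of the 7 and by 12.2% of all genes. All 7 log2 fold changes were positive, with a median of 0.40, against a median of 0.0036 over all tested genes. FOS had a log2 fold change of 1.16 ± 0.69 (SE, adjusted p = 0.548, n = 4 and 2) and EGR1 of 1.18 ± 0.64 (adjusted p = 0.488), in limma's test. JUN was higher by 0.54 ± 0.21 (adjusted p = 0.328) and FOSL2 by 0.35 ± 0.064 (adjusted p = 0.0549) in limma's test. The FOSL2 call for the mean appeared without the siRNA_2 library of replicate 5 (adjusted p = 0.0459 in limma). With siRNA_2 alone, limma called FOSL2, which rose by 0.43 ± 0.074 (adjusted p = 0.0203), the only call among the 7 genes, against 0.818% of all genes. That call was lost in limma without replicate 4 of the mock set (adjusted p = 0.140), replicate 5 of the mock set (0.110) or replicate 4 of siRNA_2 (0.208), and on the values as deposited (0.0670). With siRNA_1, limma called 0 of the 7 genes and 0.488% of all genes. An unadjusted p under 0.05 was held by 2 of the 7 and by 9.97% of all genes. FOSL2 stood at 0.27 ± 0.074 (adjusted p = 0.156 in limma). FOSL1 differed most between the siRNAs, at 3.74 and 2.82 with siRNA_1 and at 7.10 and 4.999 with siRNA_2, against 3.50 and 2.77. The siRNA_2 libraries lay above all the others, yet limma's test of the difference between the siRNAs gave an adjusted p of 0.127. That test called 0 of the 7 genes and 1.51% of all genes. An unadjusted p under 0.05 was held there by 2 members and by 13.5% of all genes. GC content moved with this comparison: the rank correlation between GC content and the log2 fold change of the mean was 0.43 over 11270 genes. After a GC correction of each library the log2 fold change was 1.13 for FOS, 1.13 for EGR1, 0.47 for JUN and 0.32 for FOSL2, but 0.23 for JUNB and 0.087 for JUND, down from 0.38 and 0.28.

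With hnRNPC siRNAs, FOS and EGR1 were higher in all 4 siRNA libraries than in the mock oct set, by widely different amounts. FOS was at 27.5 and 3.45 scaled TPM with siRNA_2 and at 21.1 and 3.19 with siRNA_3, against 1.79 and 0.511 in the mock set. Relative to the mock mean these libraries held 23.9, 2.99, 18.3 and 2.77 times as much FOS. Relative to the mock library of the same number they held 15.4, 6.75, 11.8 and 6.24 times as much, although the labels do not say what a number marks. EGR1 was at 10.5 and 0.854 with siRNA_2 and at 11.4 and 1.32 with siRNA_3, against 0.797 and 0.274, which is 13.1, 3.12, 14.3 and 4.80 times the mock library of the same number. The lowest siRNA library of EGR1 lay close to the highest mock library, whereas for FOS the groups were apart. These 2 of 7 tested genes had groups that did not overlap in this direction, against 8.28% of all tested genes. FOSB, a FOS family subunit of acute responses, was at 1.20 and 0.748 in the replicate 1 libraries, but at 0.0789 and 0.0736 in the replicate 3 libraries and 0.0386 and 0.00400 in the mock set. Its 2 high values were the only ones above 0.112 in the 24 libraries. JUN was at 25.3 and 13.5 with siRNA_2 and at 22.7 and 11.6 with siRNA_3, against 11.6 and 10.9, so that the replicate 3 library of siRNA_3 was level with the higher mock library. JUNB was at 46.3 and 51.3 in the replicate 1 libraries and 28.1 and 26.7 in the replicate 3 libraries, against 33.3 and 26.9. JUND was at 44.7 and 40.0, and at 26.5 and 23.7, against 31.7 and 30.4. For JUNB the replicate 3 libraries lay within or just under the mock range, and for JUND they lay below it.

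For the mean of both hnRNPC siRNAs, limma called 0 of the 7 tested genes and 6.45% of all genes. An unadjusted p under 0.05 was held by 4 of the 7 and by 20.9% of all genes. The log2 fold change of FOS was 2.34 ± 0.69 (SE, adjusted p = 0.0564, n = 4 and 2) and that of EGR1 1.72 ± 0.64 (adjusted p = 0.131) in limma's test. JUN stood at 0.59 ± 0.21 (adjusted p = 0.123) and FOSL2 at -0.21 ± 0.064 (adjusted p = 0.0618). Without the replicate 1 siRNA libraries, and against both mock libraries, the log2 fold change was 1.07 for FOS (adjusted p = 0.226), 0.46 for EGR1 (0.541) and 0.14 for JUN (0.461) in limma's test. JUNB then stood at -0.12 instead of 0.28 and JUND at -0.30 instead of 0.068. The mock set kept its replicate 1 library in this fit, the higher mock library for each of these genes, which lowers the fold changes. Relative to the mock library of the same number, the replicate 3 libraries of siRNA_2 and siRNA_3 held 1.05 and 0.991 times as much JUNB. For JUND it was 0.871 and 0.778 times. Leaving out either replicate 3 library instead gave calls of FOS, EGR1 and JUN. The adjusted p in limma was 0.0141, 0.0265 and 0.0270 without replicate 3 of siRNA_2, and 0.0170, 0.0297 and 0.0169 without replicate 3 of siRNA_3. With siRNA_2 alone, limma called 0 of the 7 genes, against 13.3% of all genes. An unadjusted p under 0.05 was held by 4 of the 7 and by 27.3% of all genes. FOS stood at 2.45 ± 0.80 (adjusted p = 0.0549 in limma). FOS, JUN and EGR1 were called for siRNA_2 when its replicate 3 library was left out (adjusted p = 0.0174, 0.0219 and 0.0352 in limma). Without the replicate 1 libraries the call was FOSL1 instead (log2 fold change 0.85, adjusted p = 0.0346 in limma).

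The 2 hnRNPC siRNAs parted on FOSL1 and FOSL2 and not detectably on the others. FOSL2 was at 14.8 and 15.8 scaled TPM with siRNA_2 and at 11.2 and 10.6 with siRNA_3, against 15.7 and 14.6 in the mock set. The siRNA_2 libraries lay about the mock range and the siRNA_3 libraries below it. FOSL2 fell with siRNA_3 (log2 fold change -0.44 ± 0.074, adjusted p = 0.00431 in limma), the only call among the 7 genes, against 2.72% of all genes. This call held without each of the 4 libraries of the comparison in turn (adjusted p from 0.0168 to 0.0458 in limma), and at 0.0271 without the replicate 1 libraries, but was lost when only the groups compared were fitted (0.318). FOSL1, a FOS family gene often high in invasive carcinoma lines, was at 4.45 and 7.37 with siRNA_2 and at 2.84 and 3.20 with siRNA_3, against 3.71 and 3.57. Here siRNA_2 lay above the mock set, as for 22.4% of all genes, and siRNA_3 below it, as for 22.1%. In the test of the difference between the siRNAs, limma called these 2 of the 7 genes, against 11.1% of all genes. The difference was 0.46 ± 0.074 for FOSL2 (adjusted p = 0.00146) and 0.75 ± 0.22 for FOSL1 (adjusted p = 0.0382), higher with siRNA_2 in both. Both were lost when only the groups compared were fitted (adjusted p = 0.146 and 0.174 in limma). The FOSL1 call was lost without replicate 3 of siRNA_2 (0.44, adjusted p = 0.396 in limma), replicate 1 of siRNA_3 (adjusted p = 0.159) or replicate 3 of siRNA_3 (0.103), and narrowly without both replicate 1 libraries (1.00, adjusted p = 0.0503). It was also lost after GC correction (adjusted p = 0.0716). For FOS the difference between the siRNAs was 0.23 ± 0.80 and for EGR1 -0.22 ± 0.74 (adjusted p = 0.902 and 0.900 in limma); differences of this error say little of likeness.

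With each SRSF1 siRNA, JUNB lay above its own mock set and FOSL2 below it. JUNB was at 39.6 and 41.5 scaled TPM with siRNA_1, against 30.3 and 28.8 in the mock nov set. It was at 38.5 and 41.4 with siRNA_3, against 28.4 and 33.5 in the mock jan set. All 4 siRNA libraries lay above all 4 mock libraries. JUNB was 1 of 7 tested genes with such groups, against 6.71% of all genes. The log2 fold change of the mean was 0.40 ± 0.17 (SE, adjusted p = 0.153, n = 4 and 4) in limma's test, and it was called after GC correction (adjusted p = 0.0469). For the mean, limma called 0 of the 7 genes, against 9.37% of all genes. An unadjusted p under 0.05 was held by 2 of the 7, near the 23.3% of all genes. With siRNA_1 it called 0 of 7, against 2.95% of all genes, with 0 of 7 and 15.8% of all genes at an unadjusted p under 0.05. With siRNA_3 it called 0 of 7, against 3.25%, with 2 of 7 and 16.5% of all genes at an unadjusted p under 0.05. Those 2 were FOSL2, at 13.5 and 12.0 against 15.1 and 14.4, and FOSL1, at 3.14 and 2.12 against 4.32 and 3.67. Both lay below the jan set in each library, as did JUN and 22.9% of all genes. JUNB and JUND lay above it in each library, as did 26.9% of all genes. FOSL2 was also below the nov set with siRNA_1, at 14.9 and 14.6 against 15.6 in both mock libraries, as were 24.2% of all genes. For the mean of both siRNAs FOSL2 stood at -0.14 ± 0.053 (adjusted p = 0.125 in limma), and its pooled ranges overlapped. With siRNA_1 FOSL1 was at 6.03 and 4.67 against 5.17 and 4.06, ranges that overlapped. In the test of the difference between the SRSF1 siRNAs, limma called 0 of 7 and 0.00588% of all genes. An unadjusted p under 0.05 was held by 0 of 7 and by 4.97% of all genes. FOS was at 1.78 and 2.03 with siRNA_1 against 0.883 and 0.980, and at 1.37 and 2.40 with siRNA_3 against 0.982 and 5.04. EGR1 was at 0.845 and 0.909 against 0.374 and 0.287, and at 0.843 and 1.32 against 0.567 and 3.02. Both genes were above the nov set with siRNA_1, as were JUN, JUNB and 21.8% of all genes. With siRNA_3 FOS and EGR1 were within the wide range of the jan set.

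For the mean of both hnRNPM siRNAs, limma called 0 of the 7 tested genes, against 1.04% of all genes. An unadjusted p under 0.05 was held by 0 of the 7 and by 10.8% of all genes. None of the 7 had all 4 siRNA libraries above all 4 mock libraries, as 1.82% of all genes had. The log2 fold changes of the mean ran from -0.085 for JUND to 0.27 for FOS. With siRNA_1 limma called 0 of 7 and 0.677% of all genes, with 0 of 7 and 9.15% of all genes at an unadjusted p under 0.05. With siRNA_3 it called 0 of 7 and 0.282% of all genes, with 1 of 7 and 7.73% of all genes at an unadjusted p under 0.05. That gene was FOSL2, at 18.3 and 17.8 scaled TPM with siRNA_3 against 15.1 and 14.4 in the mock jan set (log2 fold change 0.27 ± 0.074, adjusted p = 0.244 in limma). FOSL2 lay above the jan set in both siRNA_3 libraries, as did FOSL1, JUN and 19.8% of all genes. JUND lay below that set in both, as did 17.8% of all genes. With siRNA_1 FOSL2 was at 13.9 and 14.9 against 15.7 and 14.6. The test of the difference between the hnRNPM siRNAs called 0 of 7 genes in limma and 0.0412% of all genes. An unadjusted p under 0.05 was held by 1 of 7 and by 5.19% of all genes.

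**Figure D3:**
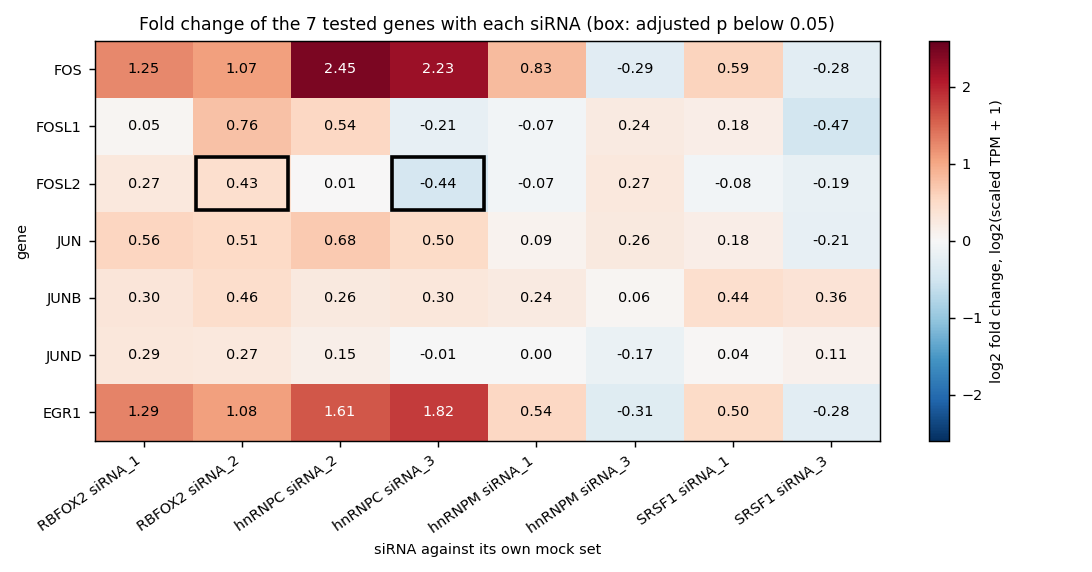
Log2 fold change of each of the 7 tested genes (rows) with each siRNA against its own mock set (columns), by colour and number; black boxes mark calls. The boxes are FOSL2 with RBFOX2 siRNA_2 (0.43) and with hnRNPC siRNA_3 (-0.44); the deepest reds, FOS with hnRNPC siRNA_2 (2.45) and siRNA_3 (2.23), are not called. Columns that share a mock set share its error.

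The mock sets themselves gave 0 calls among the 7 genes in any of their 6 comparisons in limma, although their overall differences were unequal. Between the n4, n5 set and the oct, nov and jan sets, 1.11%, 7.77% and 5.8% of all genes were called. For oct against nov it was 0% (2295 genes at an unadjusted p under 0.05), for oct against jan 0.0177%, and 0.265% for nov against jan. At an unadjusted p under 0.05 there was 1 of the 7 genes in 1 comparison, FOSL2 between the n4, n5 and nov sets (log2 difference -0.18, adjusted p = 0.139 in limma). Such a p was held by 24.6% of all genes in that comparison. Mock levels of FOS ran from 0.511 to 5.04 scaled TPM and those of EGR1 from 0.274 to 3.02, wider than the 13.5 to 15.7 of FOSL2.

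FOS and EGR1 varied together from library to library, mock libraries included. Over the 24 libraries the Pearson correlation of their log2(scaled TPM + 1) was 0.968 and the Spearman correlation 0.964. Without the 4 hnRNPC siRNA libraries Pearson's r was 0.980 over 20 libraries, and for deviations from the group means it was 0.987. FOS and JUNB correlated at 0.731, and at 0.950 for deviations from the group means. JUND followed FOS about as closely, at 0.734 and at 0.824 for deviations, and EGR1 at 0.820. The highest level was 2.025 times the lowest for JUNB and 1.90 times for JUND. FOS and FOSL2 showed no such relation (-0.060), nor did FOS and FOSL1 (-0.093). FOSL1 and FOSL2 correlated with each other at 0.666, and at 0.785 for deviations from the group means. JUN stood between: over all 24 libraries it followed FOS (0.741) and not FOSL2 (0.137), but without the hnRNPC siRNA libraries it followed FOSL2 (0.756) more than FOS (0.384). These are descriptions: values of a library share its depth, scaling and GC trend, and groups share mock sets.

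**Figure D4:**
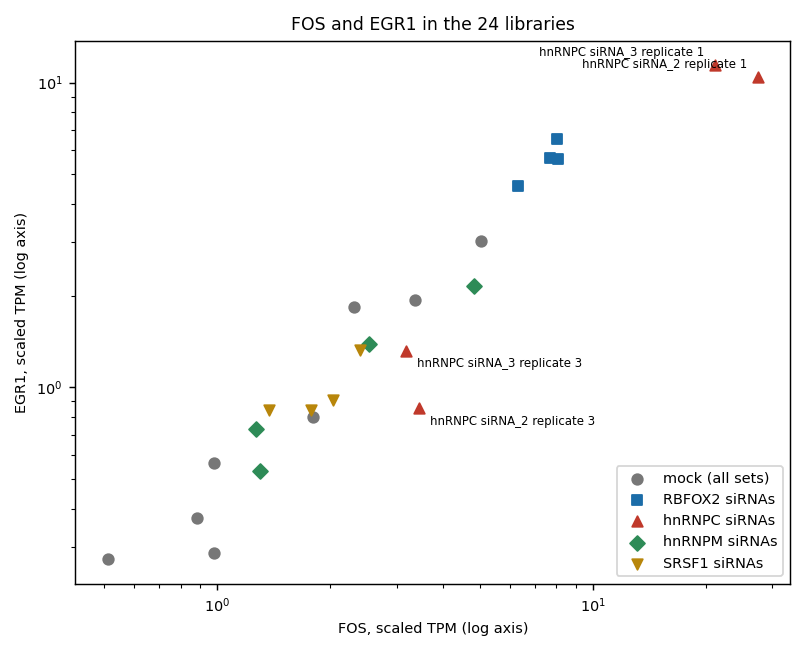
FOS against EGR1 in scaled TPM, both on log axes, with 1 point per library, coloured by the protein targeted. The points lie along a line from the lowest mock library (0.511 and 0.274) through the 4 RBFOX2 siRNA libraries to the replicate 1 hnRNPC libraries; the replicate 3 hnRNPC libraries lie below the RBFOX2 siRNA libraries on both axes.

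Other genes whose level varied most like a member's were sought among 7971 genes with a mean of at least 5 scaled TPM, for members that reached that mean. For JUN they were DUSP1 (r = 0.737 over 24 libraries), a MAP kinase phosphatase and itself an immediate early gene, TNFSF9 (0.664), a TNF family ligand, and RAPGEF3 (0.651), an exchange factor activated by cyclic AMP. For JUNB they included SOX17 (0.891) and TMEM259 (0.868). For JUND they were PCSK1N (0.883), TMEM259 (0.868) and DYNLRB1 (0.867). For FOSL2 they were PTPN9 (0.856), a tyrosine phosphatase, DCTD (0.854), a deaminase of nucleotide synthesis, and PPP1R18 (0.820). Only DUSP1 among these is in the lists of AP-1 biology used here.

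Of 27 other immediate early genes, 18 were tested. With RBFOX2 siRNAs 17 of the 18 had a positive mean log2 fold change, with a median of 0.23 against 0.0036 over all genes, and limma called 0, with 10 at an unadjusted p under 0.05. KLF4, a zinc-finger transcription factor, stood at 0.40 ± 0.085 (SE, adjusted p = 0.0748) and DUSP1 at 0.67 ± 0.15 (adjusted p = 0.0882) in limma. With siRNA_2 alone these 2 rose, KLF4 by 0.56 ± 0.098 and DUSP1 by 1.00 ± 0.17 (adjusted p = 0.0225 for both in limma). KLF4 was lost without each of the 4 libraries in turn and DUSP1 without 3 of them (adjusted p up to 0.212 and 0.208). Both calls held after GC correction, and both were lost when only the groups compared were fitted. These 2 of 18 compare with 0.818% of all genes. With hnRNPC siRNAs 16 of 18 were positive, with a median of 0.13 against -0.012 over all genes. For the mean 2 rose, 11.1% of the list against 6.45% of all genes. CYR61, a secreted matricellular protein, rose by 0.61 ± 0.15 and SGK1, a kinase, by 0.40 ± 0.11 (adjusted p = 0.0271 and 0.0393 in limma). Both were weakly expressed, at 1.13 to 2.36 and 0.877 to 1.20 scaled TPM in the 4 siRNA libraries. With siRNA_2 6 rose and 1 fell, 38.9% of the list against 13.3% of all genes, among them DUSP1 (0.84), CYR61 (0.78) and MYC (0.42), which rose, and KLF10 (-0.43), which fell (adjusted p = 0.00553, 0.00879, 0.0137 and 0.00781 in limma). DUSP1 held without each of the 4 libraries in turn, and the other 3 were lost without replicate 3 of the oct set (adjusted p up to 0.129). With siRNA_3 limma called 0, with 3 of 18 and 15.6% of all genes at an unadjusted p under 0.05. Leaving out the replicate 1 libraries left 1 library in each hnRNPC siRNA group. For the mean 12 of 18 were then positive, with a median of 0.10 against -0.014 over all genes. With siRNA_2 14 of 18 were positive, with a median of 0.26, and with siRNA_3 8 of 18, with a median of -0.032. Neither CYR61 nor SGK1 then passed (adjusted p = 0.119 and 0.0905 in limma), and each call was also lost without 1 or more single libraries (adjusted p up to 0.184 and 0.165). With SRSF1 siRNAs 1 of the 18 fell, 5.56% against 9.37% of all genes: ATF3 by 0.39 on the log2 scale (adjusted p = 0.0238 in limma), a call lost without any of 6 single libraries (adjusted p up to 0.0906). With hnRNPM siRNAs limma called 0 of 18, with 2 at an unadjusted p under 0.05.

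**Figure D5:**
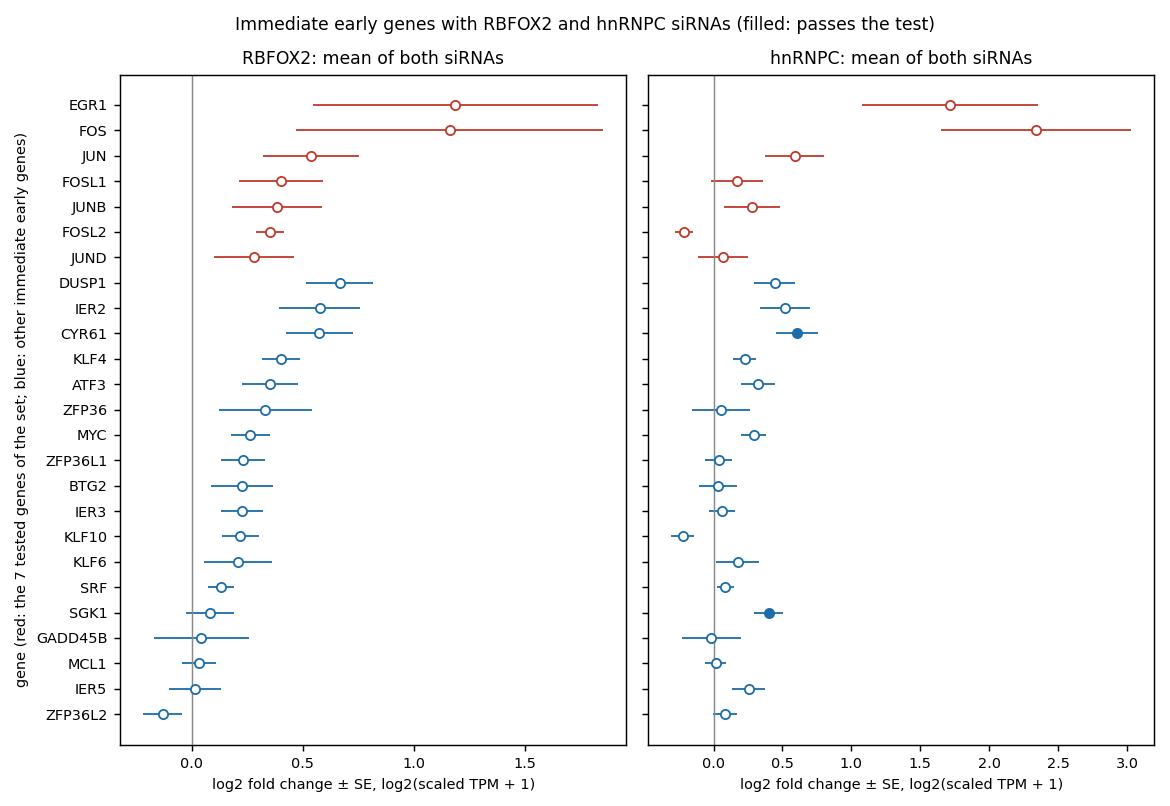
Log2 fold change ± SE for the mean of both RBFOX2 siRNAs (left) and both hnRNPC siRNAs (right), for the 7 tested AP-1 genes (red) and 18 other immediate early genes (blue); filled points passed the test. With RBFOX2 all but ZFP36L2 lie to the right of 0 and none is filled; with hnRNPC, CYR61 and SGK1 are filled, and FOS and EGR1 lie far to the right with wide errors.

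Of 18 partners of AP-1 outside the 8 genes (ATF, MAF, BATF and related leucine zipper genes), 13 were tested. With hnRNPC siRNAs 2 fell, 15.4% of the list against 6.45% of all genes: ATF5, a factor of the stress response, from 7.28 to 5.18 scaled TPM (log2 fold change -0.43 ± 0.088, adjusted p = 0.00957 in limma), and BATF3 from 2.01 to 1.24 (-0.45 ± 0.12, adjusted p = 0.0392 in limma). Without the replicate 1 libraries ATF5 still passed (adjusted p = 0.0246 in limma) and BATF3 did not (0.0802). ATF5 was lost without replicate 1 of the mock oct set (adjusted p = 0.102 in limma) and BATF3 without any of 5 single libraries (up to 0.314). With SRSF1 siRNAs 3 fell, 23.1% against 9.37% of all genes: ATF5 from 5.94 to 4.47 (-0.34 ± 0.072, adjusted p = 0.00793 in limma), NFE2L2, the oxidative stress factor, from 36.3 to 29.01 (-0.32 ± 0.071, adjusted p = 0.0109), and ATF3. ATF5 passed without each of 8 libraries in turn (adjusted p up to 0.0459 in limma), and NFE2L2 was lost without replicate 1 of the jan set or replicate 2 of siRNA_1 (adjusted p up to 0.0601). With RBFOX2 siRNAs 11 of 13 were positive and limma called 0, with 4 at an unadjusted p under 0.05. With hnRNPM siRNAs it called 0, with 1.

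The 32 genes listed as acting upstream of AP-1 (MAP kinases, their activators, SRF and its cofactors, and ligases or corepressors) were all tested. With hnRNPC siRNAs 3 fell and 1 rose, 12.5% of the list against 6.45% of all genes. MAPK9, which encodes the JUN kinase JNK2, fell from 11.4 to 8.60 scaled TPM (-0.37 ± 0.062, adjusted p = 0.00239 in limma), in each left-out fit (up to 0.0331) and without the replicate 1 libraries (0.00183). MAP3K1, a kinase upstream of JNK, fell by 0.25 (adjusted p = 0.0126 in limma; 0.123 without replicate 3 of the oct set), and RPS6KA3, a kinase activated by ERK, by 0.34 (adjusted p = 0.0174; 0.0632 without the replicate 1 libraries, and up to 0.182 without replicate 1 of siRNA_3 or replicate 3 of the oct set). NAB2, a corepressor of EGR1 that EGR1 also induces, rose from 3.86 to 5.32 (0.38 ± 0.099, adjusted p = 0.0333 in limma; up to 0.203 without single libraries). With SRSF1 siRNAs 5 rose and 1 fell, 18.8% against 9.37% of all genes. ELK3, an SRF cofactor, rose from 5.20 to 7.03 (0.34 ± 0.055, adjusted p = 0.00118 in limma, up to 0.00751 in the left-out fits). RPS6KA5 rose by 0.34 and MAP2K3 by 0.35, both at under 1 scaled TPM, and RFWD2, a ubiquitin ligase that targets JUN, fell by 0.23 (adjusted p = 0.0227, 0.0321 and 0.0124 in limma; each lost without 3 or more single libraries). With RBFOX2 and hnRNPM siRNAs limma called 0 of 32, with 8 at an unadjusted p under 0.05 in each; ELK1, another SRF cofactor, had the smallest p with RBFOX2, at 0.35 ± 0.084 (adjusted p = 0.0992).

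Of 34 genes known as AP-1 targets, 27 were tested, and they did not move one way. With hnRNPC siRNAs 2 were called, 7.41% of the list and near the 6.45% of all genes. LAMB3, a laminin chain, fell from 119 to 85.5 scaled TPM (-0.47 ± 0.080, adjusted p = 0.00268 in limma, up to 0.0456 in the left-out fits), and NT5E, the ectonucleotidase CD73, rose from 12.0 to 21.4 (0.75 ± 0.21, adjusted p = 0.0448 in limma). NT5E was lost without replicate 3 of either siRNA or either oct library (adjusted p up to 0.243). Without the replicate 1 libraries, which left 1 library in each hnRNPC siRNA group, LAMB3 stood at -0.57 and NT5E at 1.07. With SRSF1 siRNAs 2 rose and 4 fell, 22.2% against 9.37% of all genes. MMP10, a matrix metalloproteinase, rose from 1.75 to 3.51 (0.68 ± 0.12, adjusted p = 0.00276 in limma, up to 0.0167 in the left-out fits), and LAMB3 fell from 117 to 93.3 (-0.33 ± 0.065, adjusted p = 0.00546, up to 0.0251). S100A2 fell by 0.91 and ITGA2, an integrin chain, rose by 0.31 (adjusted p = 0.0171 and 0.0175 in limma), both lost without 4 of the 8 libraries taken singly (up to 0.0764 and 0.0755). With RBFOX2 siRNAs limma called 0 of 27 for the mean, with 3 at an unadjusted p under 0.05. For single siRNAs LAMB3 fell by 0.50 with siRNA_1, and LIF, a cytokine, and PLAU, the urokinase, rose by 0.65 and 0.59 with siRNA_2 (adjusted p = 0.0258, 0.0313 and 0.0490 in limma), each lost without any of the 4 libraries (up to 0.333). With siRNA_2 LAMB3 stood the other way, at 0.38 (adjusted p = 0.0656 in limma). FN1, fibronectin, fell with hnRNPC siRNA_2 (-0.91, adjusted p = 0.00239 in limma), stood at 0.44 with hnRNPC siRNA_3 (adjusted p = 0.189) and rose with SRSF1 siRNA_1 (0.99, adjusted p = 0.00443, up to 0.0838 without single libraries). For the mean of both hnRNPM siRNAs limma called 0, with 4 at an unadjusted p under 0.05. With hnRNPM siRNA_1 alone TNC, the matrix protein tenascin C, fell from 1.58 to 0.660 scaled TPM (-0.64, adjusted p = 0.0341 in limma), a call lost without any of the 4 libraries (up to 0.326).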

How the data were processed

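The authors deposited TPM, 57773 genes by 24 libraries, with columns that each sum to 1000000. The tools, per the submitters' processing notes, were TopHat2 2.0.9, Bowtie2 2.1.0.0, Trimmomatic 0.38, FastQC 0.10.1 and SAMtools 0.1.19.0, with the build hg19. The counting tool, its annotation, its use of strand and the depth are not given in the sources used here. On the opposite strand of GENCODE v29, ERCC1 (3.64 to 7.66 TPM) overlaps FOSB and HOOK2 (5.07 to 14.5 TPM) overlaps JUNB, so reads of these genes may not be told apart.

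Each library was divided by a median-ratio factor taken over 22727 genes (factors 0.664 to 1.41), and the values were fitted in limma 3.58.1 (R 4.3.3) as log2(scaled TPM + 1) with 12 group means and empirical Bayes moderation with a trend (12 residual and 3.04 prior degrees of freedom). A protein's result was the mean of its 2 siRNAs, each minus its own mock set, called only with the same sign in both. All 24 libraries shared the estimate of spread. The series calls the libraries biological replicates. The fit was checked on simulated data. The 8 genes and the gene lists were chosen with earlier results of these data known, so their direction is not independent evidence. Named list genes were up to 4 calls with the smallest adjusted p in each list and comparison, or up to 2 as values where there was none. Alternatives were other scalings, pseudocounts and filters, a GC correction, a replicate block, other controls and leaving out libraries. Promoters came from RefSeq (GRCh38.p14), GC content from GENCODE v29 by gene identifier. Protein sequences were not used here. Some genes that the naming rule selects are not reported here.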

Additional observations from a re-analysis of the deposited data

Results flagged for a closer look

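The 2 results flagged are differences between the hnRNPC siRNAs against the same mock oct set. For FOSL1 the log2 difference, siRNA_2 minus siRNA_3, was 0.75 ± 0.22 (SE, adjusted p = 0.0382 in limma): both siRNA_2 libraries lay above the mock set and both siRNA_3 libraries below it. For FOSL2 it was 0.46 ± 0.074 (adjusted p = 0.00146 in limma), with both siRNA_3 libraries below the mock set. The FOSL2 call held without each of the 6 libraries in turn (adjusted p from 0.00166 to 0.0277 in limma), and the FOSL1 call was lost without 3 of them (adjusted p up to 0.396). Both calls were lost when only the groups compared were fitted (adjusted p = 0.146 for FOSL2 and 0.174 for FOSL1 in limma). The oct mock libraries enter both siRNAs and cancel in the difference.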

How the results depend on the processing

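No log2 fold change of the 7 genes for a single siRNA or protein that was called changed sign under any alternative. The 28 results of the 7 genes at an unadjusted p under 0.05 in limma, called or not, were followed over the alternatives. They include differences between siRNAs and 1 mock comparison. Of their alternative values 436 stayed on their side of the threshold for a call, 64 newly passed it and 15 no longer did. Counts of the 7 genes called by limma moved as follows. The share of all genes called can also move with the setting and is not reported here for these fits. A higher count is therefore not shown to be particular to the 7 genes. With all 8 mock libraries as control, differences between the mock sets also enter the comparison. The replicate numbers are shared within a mock set, but the labels do not say what a number marks, so they were not taken to pair libraries; same-numbered deviations correlated at 0.0615 to 0.431 over 13 pairs of groups. With the number as a replicate block the calls were 2 (not 1) for RBFOX2 siRNA_2, 4 (not 0) for hnRNPC siRNA_2, 3 (not 1) for hnRNPC siRNA_3, 1 (not 0) for SRSF1 siRNA_3, and 1, 2 and 1 (not 0) for the RBFOX2, hnRNPC and SRSF1 means. The hnRNPC calls were FOS (adjusted p = 0.00133 in limma) and EGR1 (0.0114). GC correction with the replicate block gave 1 and 2 calls for RBFOX2 siRNA_1 and siRNA_2, 4 and 3 for hnRNPC siRNA_2 and siRNA_3, 1 for hnRNPM siRNA_3, 1 and 2 for SRSF1 siRNA_1 and siRNA_3, and 1, 3 and 2 for the RBFOX2, hnRNPC and SRSF1 means. GC correction alone gave 1 for hnRNPC siRNA_2 and for the hnRNPC and SRSF1 means. With all 8 mock libraries as control there were 2, 4, 3, 1 and 1 for RBFOX2 siRNA_1, RBFOX2 siRNA_2, hnRNPC siRNA_2, hnRNPM siRNA_3 and SRSF1 siRNA_3, and 5 and 3 for the RBFOX2 and hnRNPC means. A pseudocount of 0.1 and a filter at 5 TPM each gave 1 for hnRNPC siRNA_2 and its mean; that filter, and no filter, gave 1 for the RBFOX2 mean. On the values as deposited and on a common total without small structured RNAs RBFOX2 siRNA_2 had 0. Fitting only the groups compared left 0 for RBFOX2 siRNA_2 and hnRNPC siRNA_3 and gave 1 for the SRSF1 mean. Without the hnRNPC replicate 1 libraries, chosen after seeing the data, hnRNPC siRNA_2 had 1. Leaving out single libraries gave 0 to 1 for RBFOX2 siRNA_2 and the RBFOX2 mean, and 0 to 3 for hnRNPC siRNA_2 and the hnRNPC mean. The cause was not tested. Of 25 calls in the lists for protein means, 6 held without each single library and 19 were lost without 1 or more. Of the 6, MMP10 with SRSF1 siRNAs also held under the 12 other settings in which it was tested, but the filter at 5 TPM removed it. ATF5, ELK3 and LAMB3 (SRSF1) and MAPK9 (hnRNPC) were lost on the values as deposited, LAMB3 (SRSF1) also with quantile normalisation. ATF5 (SRSF1), MAPK9 and LAMB3 (hnRNPC) were lost with only the groups compared. The values as deposited moved the median of all genes by 0.21 (RBFOX2 mean) and -0.14 (hnRNPC mean). Depth is unknown, and FOSB is too low to test.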

Other observations

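FOS, EGR1 and FOSL1 fell under the mean level set for the search of genes that vary alike, so the following were chosen after their values were seen. Over the 24 libraries FOS varied most like IER2 (r = 0.859), an immediate early gene, TRIB1 (0.831), a pseudokinase, and ARHGEF1 (0.827). EGR1 varied most like IER2 (0.885), TRIB1 (0.859) and PCSK1N (0.832). IER2 ranged from 6.47 to 16.1 scaled TPM. FOSL1 varied most like NIP7 (0.886), a ribosome assembly factor, the long noncoding RNA MIR4435-1HG (0.880) and EMP1 (0.879), a membrane protein. EMP1 ranged from 9.53 to 34.9 scaled TPM. The genes listed for FOSL1 and those listed for FOS and EGR1 do not share a name.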
